A study of Mus musculus with 10 samples.

Results

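The genes described here encode the AMPA-type glutamate receptor and its main auxiliary subunits. They are the 4 pore-forming subunits Gria1, Gria2, Gria3 and Gria4, the transmembrane AMPA receptor regulatory proteins (TARPs) Cacng2, Cacng3 and Cacng8, the CKAMP44 gene Shisa9, and the cornichon genes Cnih2 and Cnih3. The rule that picks them is a list of symbols, drawn up with earlier results of these data known. All 10 were found among the 48526 gene identifiers measured, and all 10 passed the filter on low values (a mean of at least 10 normalized counts) that left 17007 genes for testing. RNA was sequenced from dentate gyrus dissected from C57Bl/6 mice aged 8 weeks. The 5 mice of the Sox11 group had been injected with Sox11 in an AAV vector (adeno-associated virus, serotype 9), and the 5 mice of the GFP group with green fluorescent protein in the same kind of vector. Each mouse received 1 µl of virus in the dentate gyrus of the left and the right side, so both groups carry virus and the surgery. The promoter that drives the delivered gene and the interval between injection and dissection are not stated in the labels. Libraries are named below by group and by the number in their column heading, which differs from the number in the sample titles.

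AMPA receptors are tetramers of the subunits GluA1 to GluA4, encoded by Gria1 to Gria4, and carry most fast excitatory transmission in the brain. The Gria2 transcript is edited at the codon of the Q/R site in the pore, where glutamine becomes arginine, and receptors that hold edited GluA2 pass little calcium. TARPs, cornichons and CKAMP44 bind the receptor and set its export from the endoplasmic reticulum, its surface number and its gating. In the dentate gyrus, CKAMP44 is known for its action on the receptors of granule cells. Sox11 belongs to the SoxC transcription factors, which immature neurons use. The comparison asks how raised Sox11 in the adult dentate gyrus alters transcript levels.

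The coding stretch around the Q/R codon is shown for the 4 pore-forming genes because the enzyme that edits it in Gria2 was among the genes that fell, and because it shows how alike the subunits are at this site. Each line holds 45 bases of the GENCODE M21 transcript (build GRCm38), written 5′ to 3′ on the strand of the gene, with the glutamine codon of the unedited transcript in capitals.
Gria1, chr11:57243073-57243117, plus strand: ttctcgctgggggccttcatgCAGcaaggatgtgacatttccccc
Gria2, chr3:80706890-80706934, minus strand: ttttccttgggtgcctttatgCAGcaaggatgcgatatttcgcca
Gria3, chrX:41610244-41610288, plus strand: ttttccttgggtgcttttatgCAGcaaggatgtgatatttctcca
Gria4, chr9:4464116-4464160, minus strand: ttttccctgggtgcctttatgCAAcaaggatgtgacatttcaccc
The stretch lies in exon 11 of 16 in Gria1, Gria2 and Gria3, and in exon 12 of 17 in Gria4. Over these 45 bases, Gria3 differed from Gria2 at 3 bases, Gria4 at 6 and Gria1 at 9. The deposited values are sums per gene, so they measure neither editing at this codon nor the flip and flop splice forms of the subunits.

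The libraries held between 45100154 and 68769808 reads assigned to genes. The delivered gene followed the labels. Sox11 stood at 1364 to 1634 normalized counts in the GFP libraries and at 9803 to 20434 in the Sox11 libraries (exact permutation test, two-sided, p = 0.00794, the smallest that 5 against 5 allows). The first principal component (43.3% of the variance) put every library with a column number of 1 to 3 below every library with a number of 4 or above, in both groups, and the labels do not say what the number stands for. The second component (17.4%) separated the groups. All 7 granule neuron markers were detected in every library, with a summed level of 62238 to 91010 normalized counts in GFP and 68852 to 95501 in Sox11. Markers of CA1 pyramidal neurons were present and varied within both groups, from 5160 to 16648 in GFP and from 5586 to 17118 in Sox11. The library GFP 3 carried choroid plexus transcripts, with a summed level of 376594 against 665 to 3121 in the other 9 libraries, most of it Ttr at 345861.

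Among the 10 AMPA receptor genes, Gria3 and Gria4 fell and Cnih2 rose in the Sox11 libraries. The other 7 did not pass the test, which was limma on log2(normalized count + 1) with Benjamini-Hochberg adjustment over all 17007 genes and a threshold of 0.05. Of all genes tested, 9.36% were called lower and 9.65% higher, and 3 of 10 called stand beside 19% of all genes, so nothing particular to these genes is read from the count. The median log2 fold change of the 10 genes was -0.12, against -0.01 for all genes tested, and 6 of the 10 were below 0. When each library was left out in turn, the limma adjusted p ran from 0.00265 to 0.00926 for Gria3, from 0.00741 to 0.0284 for Gria4 and from 0.00201 to 0.00552 for Cnih2. In dissected tissue, fewer cells of a type and less RNA per cell cannot be told apart.

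**Figure D1:**
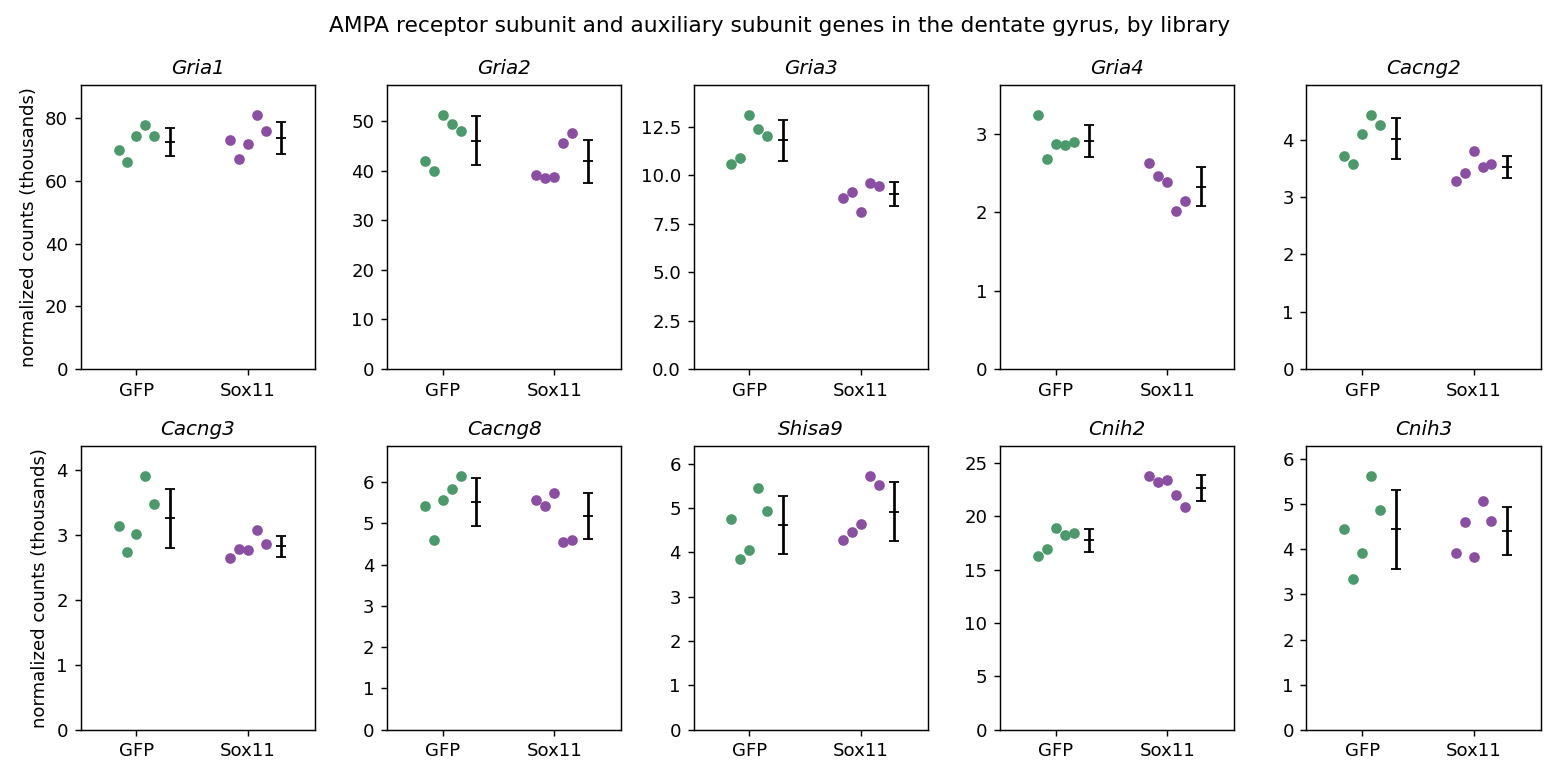
Normalized counts of the 10 AMPA receptor genes in each library (vertical axes from 0, 1 panel a gene), with 5 GFP and 5 Sox11 libraries as points and the group mean with its SD. The groups do not overlap for Gria3, Gria4 and Cnih2, and overlap for the other 7. Of all genes tested, 15.9% have groups that do not overlap.

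Gria3, which encodes GluA3, a subunit that pairs mainly with GluA2, lies on the X chromosome (ENSMUSG00000001986, chrX:41400854-41678601, plus strand). In the libraries GFP 1, 3, 4, 5 and 6 it stood at 10580, 10915, 13108, 12416 and 12023 normalized counts. In Sox11 1, 2, 3, 6 and 7 it stood at 8854, 9128, 8103, 9630 and 9477. Every Sox11 library lay below every GFP library, a separation in this direction that 7.29% of all tested genes showed. The mean fell from 11808 ± 1050 to 9038 ± 604 (SD, n = 5 each), a decrease of 23.5%. The log2 fold change was -0.38 (SE 0.07, 95% interval -0.54 to -0.23, limma adjusted p = 0.00307).

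Gria4 encodes GluA4, a subunit best known from interneurons and from early development (ENSMUSG00000025892, chr9:4417896-4796234, minus strand). Its GFP libraries stood at 3240, 2683, 2879, 2867 and 2896 normalized counts, in the order of numbers given for Gria3. Its Sox11 libraries stood at 2628, 2468, 2388, 2019 and 2150. The groups did not overlap, as for 7.29% of all tested genes in this direction, though the lowest GFP library and the highest Sox11 library lay close together. The mean fell from 2913 ± 202 to 2330 ± 245 (SD, n = 5 each), with a log2 fold change of -0.33 (SE 0.08, 95% interval -0.49 to -0.16, limma adjusted p = 0.0114).

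Some markers of interneurons moved in the same direction as these genes. Of 8 interneuron markers, 3 fell (Gad2, Npy and Lamp5) and none rose. The log2 fold changes of Gad1, Slc32a1, Sst, Pvalb and Vip were -0.20, -0.07, -0.15, -0.26 and -0.04, and these did not pass the test. All 8 were thus below 0. So were all 6 oligodendrocyte markers, of which none passed, and 8751 of all 17007 genes tested. The summed level of the 8 interneuron markers ran from 34583 to 41293 normalized counts in GFP and from 27616 to 34627 in Sox11, and none was at 0 in any library. Of 7 mossy cell markers, 3 fell (Ajap1, Nmb and Ociad2) and 4 had a log2 fold change below 0. Glipr1, Calb2 and Calcrl were above 0, at 0.38, 0.06 and 0.05, and did not pass the test. The summed level of the 7 ran from 11970 to 14800 in GFP and from 10152 to 13365 in Sox11. Beside these counts, 9.36% of all genes tested were called lower. The part of these markers in the fall of Gria3 and Gria4 was not tested.

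Gria1 encodes GluA1, the subunit most tied to activity-dependent insertion of receptors at synapses (ENSMUSG00000020524, chr11:57011387-57330244, plus strand). The GFP libraries stood at 70019, 66104, 74452, 77839 and 74298 normalized counts. The Sox11 libraries stood at 73224, 66884, 71686, 80972 and 75931. The groups overlapped throughout, with means of 72542 ± 4544 and 73740 ± 5210 (SD, n = 5 each). The log2 fold change was 0.02 with a 95% interval of -0.12 to 0.17 (limma adjusted p = 0.865), an interval that does not reach the size of the change in Gria3.

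Gria2 encodes GluA2, the subunit that sets calcium permeability (ENSMUSG00000033981, chr3:80681450-80802835, minus strand). The GFP libraries stood at 41889, 40030, 51185, 49461 and 47944 normalized counts. The Sox11 libraries stood at 39226, 38486, 38733, 45573 and 47695, so 3 of 5 lay below every GFP library and the other two within their range. The means were 46102 ± 4877 and 41942 ± 4356 (SD, n = 5 each), with a log2 fold change of -0.14 and a 95% interval of -0.33 to 0.06 (limma adjusted p = 0.333).

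Set per kilobase of the longest coding transcript, the 4 pore-forming genes can be compared with each other within a library. Gria1 made up 62.7% to 65.4% of their summed level in GFP and 66.8% to 69.3% in Sox11, and these ranges did not overlap. The share of Gria3 went from 10.6% to 11.8% in GFP and from 8.36% to 9.78% in Sox11, again with no overlap. The share of Gria2 overlapped, at 20.9% to 23.1% against 19.7% to 22.4%. Gria4 was the smallest share in every library, at 2.43% to 3.09% against 1.75% to 2.52%, with overlap. The summed level of the 4 genes was 20335 ± 1440 normalized counts per kilobase in GFP and 19509 ± 1332 in Sox11 (SD, n = 5 each), a difference within 1 SD. These shares are descriptions, and they rest on 1 transcript length a gene. The ratio of Gria3 to Gria1 normalized counts, which needs no length, ran from 0.151 to 0.176 in GFP and from 0.113 to 0.136 in Sox11, with no overlap. The ratio of Gria2 to Gria1 ran from 0.598 to 0.687 in GFP and from 0.536 to 0.628 in Sox11, with overlap.

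**Figure D2:**
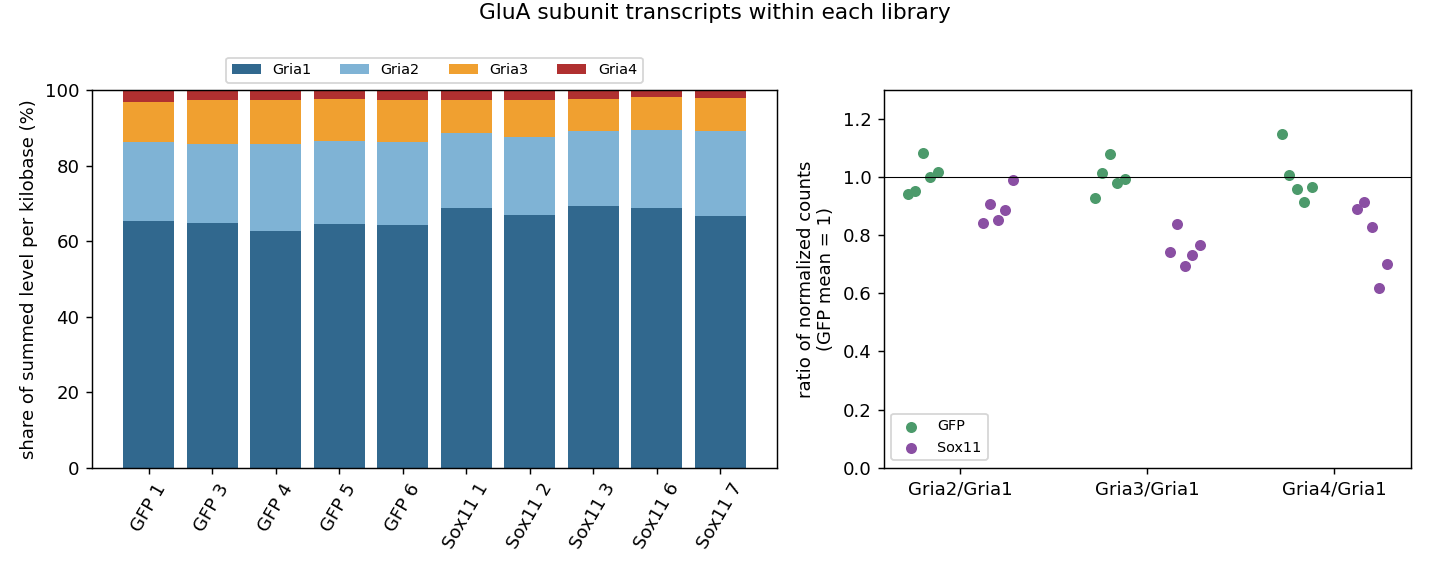
Share of each pore-forming gene in the summed level of Gria1 to Gria4 (percent, normalized counts per kilobase of the longest coding transcript), by library (left), and ratios of Gria2, Gria3 and Gria4 to Gria1 normalized counts with the GFP mean set to 1 (right, 1 point a library). Gria1 takes 62.7% to 65.4% in the GFP libraries and 66.8% to 69.3% in the Sox11 libraries, and the Gria3 to Gria1 ratio is lower in every Sox11 library than in any GFP library.

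Cnih2, a cornichon that promotes export of AMPA receptors from the endoplasmic reticulum and slows their closing, was the member that rose (ENSMUSG00000024873, chr19:5092868-5098521, minus strand). The GFP libraries stood at 16264, 16960, 18908, 18214 and 18409 normalized counts. The Sox11 libraries stood at 23784, 23266, 23399, 22019 and 20906, each above every GFP library, a separation in this direction that 8.63% of all tested genes showed. The mean rose from 17751 ± 1098 to 22675 ± 1190 (SD, n = 5 each), an increase of 27.7%. The log2 fold change was 0.35 (SE 0.06, 95% interval 0.23 to 0.48, limma adjusted p = 0.00155).

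Some astrocyte markers moved in the same direction as Cnih2. Of 7, 3 rose (Gfap, Aldh1l1 and Sox9). The log2 fold changes of Slc1a2, Slc1a3, Aqp4 and Gja1 were 0.10, 0.08, 0.04 and 0.03, and these did not pass the test. The summed level of the 7 was 254148 to 332625 normalized counts in GFP and 280749 to 359926 in Sox11. Of 7 microglia markers, 2 rose (C1qb and C1qc) and 2 had a log2 fold change below 0, the lowest P2ry12 at -0.24. Their summed level was 16977 to 20064 in GFP and 17488 to 20429 in Sox11. Of the 7 granule neuron markers, 1 rose (Rfx3) and 2 fell (C1ql2 and Plk5). Beside these counts, 9.36% of all genes tested were called lower and 9.65% higher. The part of these markers in the rise of Cnih2 was not tested.

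Cnih3, the other AMPA receptor cornichon, differed more between mice than between groups (ENSMUSG00000026514, chr1:181352628-181460641, plus strand). The GFP libraries ran from 3354 to 5627 normalized counts and the Sox11 libraries from 3826 to 5075, with coefficients of variation of 19.7% and 12.0%. The log2 fold change was 0.00, with a wide 95% interval of -0.29 to 0.30 (limma adjusted p = 0.991). The ratio of Cnih2 to Cnih3 normalized counts ran from 3.24 to 5.06 in GFP and from 4.34 to 6.12 in Sox11, with overlap.

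The promoters of Gria4, which fell, and Cnih2, which rose, are shown because Sox11 is a DNA-binding factor and these are the called genes found in the RefSeq promoter table (GRCm38.p6). Each window runs from 250 bases before to 50 bases after the start site in that table, on the strand of the gene, and capitals mark CG dinucleotides.
Gria4, chr9:4796185-4796484, minus strand: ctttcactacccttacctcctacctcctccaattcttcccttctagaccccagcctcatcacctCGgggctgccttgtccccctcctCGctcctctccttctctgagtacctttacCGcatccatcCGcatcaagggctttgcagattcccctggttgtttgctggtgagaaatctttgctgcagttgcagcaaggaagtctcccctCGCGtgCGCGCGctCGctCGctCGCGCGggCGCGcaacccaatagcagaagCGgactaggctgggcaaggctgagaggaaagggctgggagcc
Cnih2, chr19:5098472-5098771, minus strand: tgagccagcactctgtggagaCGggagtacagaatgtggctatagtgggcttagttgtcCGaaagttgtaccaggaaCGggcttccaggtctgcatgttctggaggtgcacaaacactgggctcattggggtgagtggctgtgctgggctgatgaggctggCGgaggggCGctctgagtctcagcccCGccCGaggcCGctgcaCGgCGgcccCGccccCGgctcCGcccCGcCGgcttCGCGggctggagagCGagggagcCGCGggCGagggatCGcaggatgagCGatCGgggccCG
The table held 7 of the 10 members, which were Gria2, Gria4, Cacng2, Cacng3, Cacng8, Cnih2 and Cnih3. The Cnih2 window held 25 CG dinucleotides and was 67.3% G and C, and the Gria4 window held 17 and was 59.7%. Over all 32851 windows the median was 7 CG dinucleotides and 52.7% G and C, with at least 17 in 31.4% of windows and at least 25 in 18.4%. The SOX core letters ACAAAG and ACAATG, searched on both strands, had no match in the 7 windows of the members. The windows of Cacng2, Cacng3 and Cacng8 lie wholly inside the gene bounds given here, so they do not cover the GENCODE start of these genes. ACAAAG was present in 18.7% of all windows, ACAATG in 12.6% and either in 28.6%. A window without these letters says nothing on binding by Sox11 there or elsewhere.

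Cacng8 encodes γ-8, a TARP known for its high level in the hippocampus (ENSMUSG00000053395, chr7:3390683-3415648, plus strand). The GFP libraries stood at 5427, 4608, 5562, 5844 and 6146 normalized counts. The Sox11 libraries stood at 5561, 5414, 5724, 4550 and 4586. The groups overlapped, and the 2 lowest Sox11 libraries were those numbered 6 and 7. The means were 5517 ± 578 and 5167 ± 558 (SD, n = 5 each), with a log2 fold change of -0.09 and a 95% interval of -0.29 to 0.10 (limma adjusted p = 0.530).

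Cacng2 encodes stargazin, the TARP that is lost in the stargazer mouse (ENSMUSG00000019146, chr15:77991748-78120028, minus strand). The GFP libraries stood at 3712, 3587, 4108, 4430 and 4260 normalized counts. The Sox11 libraries stood at 3285, 3423, 3815, 3534 and 3577. Of the Sox11 libraries, 4 of 5 lay below every GFP library. The means were 4019 ± 359 and 3527 ± 197 (SD, n = 5 each), with a log2 fold change of -0.19 and a 95% interval of -0.33 to -0.04. The limma adjusted p of 0.0697 missed the threshold. With each library left out in turn, it ran from 0.0261 to 0.152. It passed only without GFP 3, the library with choroid plexus transcripts.

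Cacng3 encodes γ-3, a TARP of forebrain neurons (ENSMUSG00000066189, chr7:122670492-122769393, plus strand). The GFP libraries ran from 2744 to 3912 normalized counts and the Sox11 libraries from 2646 to 3078, with means of 3259 ± 450 and 2827 ± 160 (SD, n = 5 each). The log2 fold change was -0.20 with a 95% interval of -0.38 to -0.01 (limma adjusted p = 0.139). With each library left out in turn, the limma adjusted p ran from 0.0382 to 0.264. It passed only without GFP 3, the lowest of its group.

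Shisa9 encodes CKAMP44, which slows the recovery of receptors from desensitization (ENSMUSG00000022494, chr16:11984113-12270902, plus strand). The GFP libraries ran from 3852 to 5449 normalized counts and the Sox11 libraries from 4270 to 5717, so the groups overlapped. The means were 4610 ± 657 and 4919 ± 656 (SD, n = 5 each), with a log2 fold change of 0.10 and a 95% interval of -0.15 to 0.34 (limma adjusted p = 0.628).

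Per kilobase of the longest coding transcript, Cnih2 and Gria1 had the highest levels of the 10 genes in GFP, at 13218 and 13080 normalized counts per kilobase, and did not differ beyond their spread. Gria2 followed at 4445, Cacng8 at 2909 and Gria3 at 2274 ± 202. Cacng2 at 729 and Gria4 at 535 were the lowest. In the Sox11 libraries Cnih2 stood at 16884, above Gria1 in 5 of 5 libraries, compared with 3 of 5 in GFP. Gria4 stood at 428 and kept the last place. The order in the middle depends on the length used: Gria3 was the fifth by this length and lower when counts were set per kilobase of all exonic bases, where Cnih2 exceeded Gria1 in 5 of 5 libraries of both groups.

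The first principal component separated libraries by column number, so the 3 called genes were also compared within each range of numbers. Among numbers 1 to 3, with 2 GFP and 3 Sox11 libraries, the log2 fold change was -0.31 for Gria3 (limma adjusted p = 0.0504), -0.24 for Gria4 (0.159) and 0.50 for Cnih2 (0.0184). Among numbers 4 and above, with 3 GFP and 2 Sox11 libraries, it was -0.39 for Gria3 (0.0047), -0.47 for Gria4 (0.0022) and 0.21 for Cnih2 (0.0408). The groups of these 3 genes do not overlap, so their direction could not differ between the ranges. The sizes for Gria4 and Cnih2 differed, and whether they differ between the ranges was not tested. Cacng8 stood at 0.15 (0.252) in the lower range and at -0.36 (0.0076) in the upper.

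Another 49 genes that serve the receptor were listed by role, all of them tested. Of these, 12 fell (24.5%) and 2 rose (4.08%), beside 9.36% and 9.65% of all genes, and their median log2 fold change was -0.10. These lists were chosen with earlier results of these data known, so the counts are descriptions. Of 10 other auxiliary subunits, 1 fell. Gsg1l, a claudin-like subunit that dampens receptor currents, went from 1572 ± 158 to 908 ± 131 normalized counts (SD, n = 5 each), with a log2 fold change of -0.80 (SE 0.11, limma adjusted p = 0.000592). The TARP gene Cacng5 had a log2 fold change of -0.51 (SE 0.18, limma adjusted p = 0.0707). Shisa8 was low, at means of 34.0 and 56.4 normalized counts (limma adjusted p = 0.154).

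**Figure D3:**
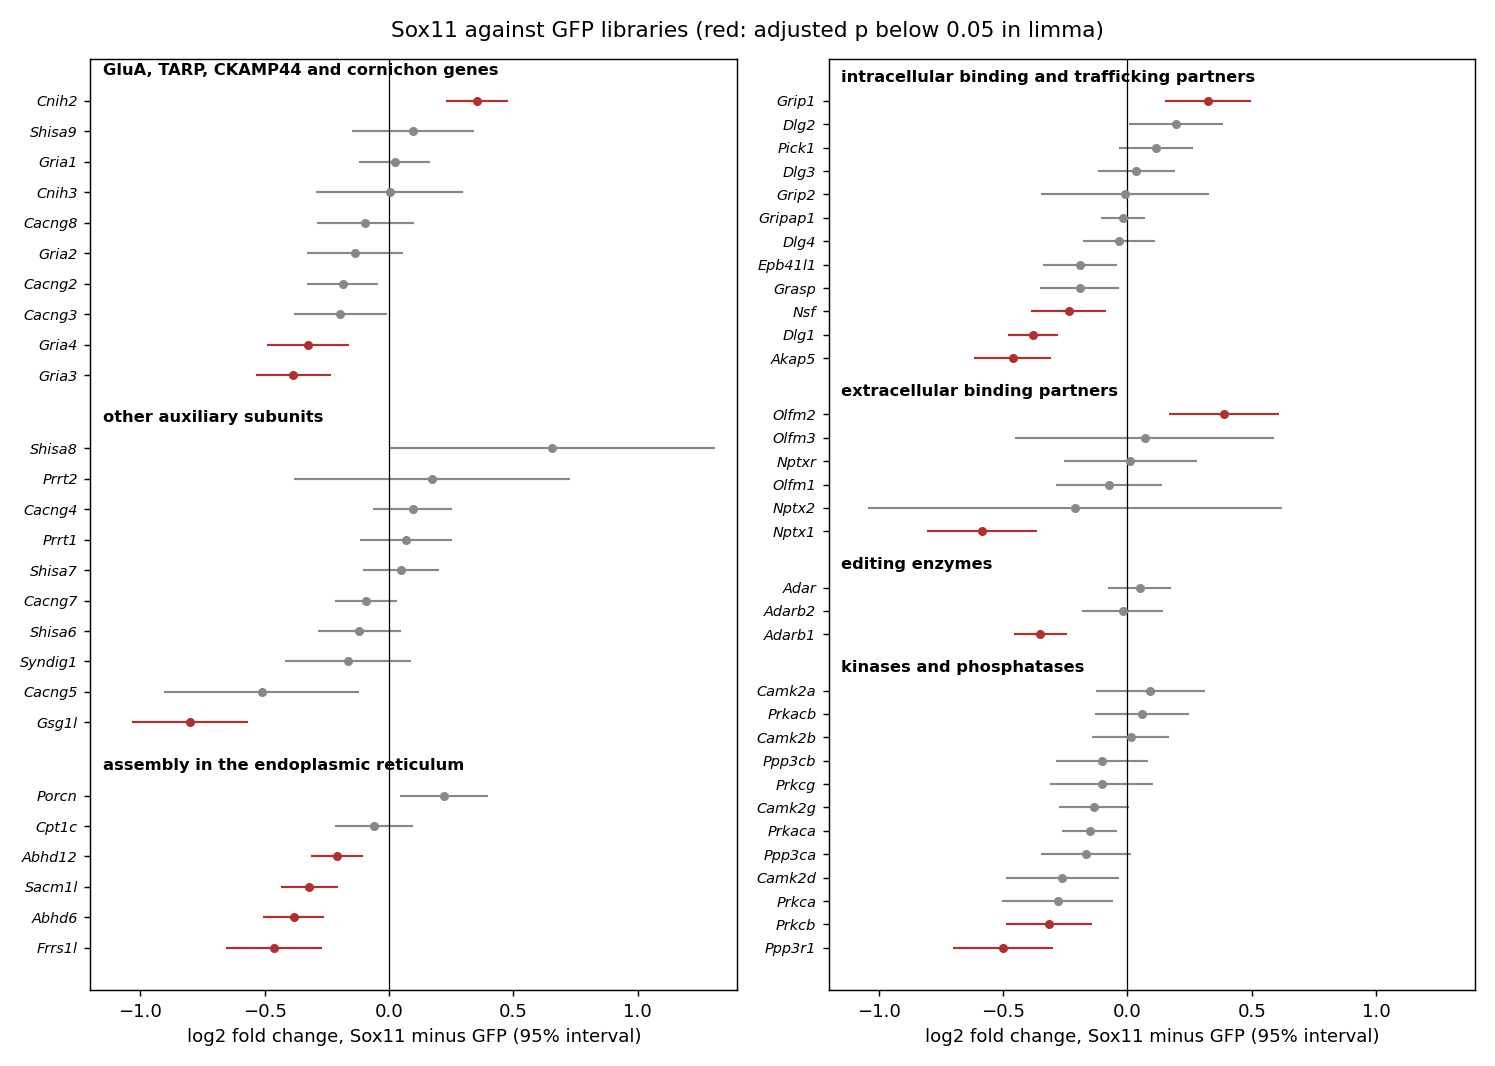
Log2 fold change (Sox11 minus GFP) with its 95% interval for the 10 AMPA receptor genes and the 49 other listed genes, grouped by role. Among the 10, Gria3 and Gria4 lie below 0 and Cnih2 above it past the threshold, and Gsg1l at -0.80 is the lowest of the called genes.

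Of the 6 genes for assembly in the endoplasmic reticulum, 4 fell, beside 9.36% of all genes called lower, and none rose. Their median log2 fold change was -0.27, and 5 of the 6 were below 0. Frrs1l, which helps build the receptor before auxiliary subunits join, went from 30776 ± 3672 to 22261 ± 2007 normalized counts (SD, n = 5 each), and its log2 fold change was -0.46 (SE 0.09, limma adjusted p = 0.00408). Abhd6, a lipase that binds pore-forming subunits and limits their delivery to the surface, fell by 0.38 on the log2 scale (SE 0.06, limma adjusted p = 0.0009). Abhd12, a lipase, fell by 0.21 (SE 0.05, limma adjusted p = 0.0104). Sacm1l, a phosphoinositide phosphatase, fell by 0.32 (SE 0.05, limma adjusted p = 0.00183), and 48.2% of its exonic bases lie opposite Slc6a20b.

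Of the 3 RNA editing enzymes, 1 fell, beside 9.36% of all genes called lower. Adarb1 encodes ADAR2, the enzyme that edits the Q/R codon of Gria2 shown above, and it went from 14935 ± 747 to 11717 ± 482 normalized counts (SD, n = 5 each). Its log2 fold change was -0.35 (SE 0.05, limma adjusted p = 0.000678). All 5 Sox11 libraries lay below every GFP library, as for 7.29% of all tested genes. Adar was at 0.05 (limma adjusted p = 0.630) and Adarb2 at -0.02 (limma adjusted p = 0.910).

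Of 12 intracellular partners, 3 fell and 1 rose, beside 9.36% of all genes called lower and 9.65% called higher. Dlg1, which encodes the scaffold SAP97 that binds GluA1, went from 6018 ± 108 to 4633 ± 268 normalized counts (SD, n = 5 each), with a log2 fold change of -0.38 (SE 0.05, limma adjusted p = 0.000301). Akap5, an anchor that holds kinases and calcineurin at the receptor, went from 5267 to 3812, with a log2 fold change of -0.46 (SE 0.07, limma adjusted p = 0.00116). Nsf, an ATPase that binds GluA2, had overlapping groups and a log2 fold change of -0.24 (SE 0.07, limma adjusted p = 0.0325), and it lost the call without any of 7 libraries (adjusted p of 0.0576 to 0.0787). Grip1, a PDZ scaffold that binds GluA2 and GluA3, rose from 1375 to 1719 with overlapping groups, a log2 fold change of 0.32 (SE 0.08, limma adjusted p = 0.015).

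Of 6 extracellular partners, 1 fell and 1 rose, beside 9.36% of all genes called lower and 9.65% called higher. Nptx1, a secreted pentraxin that clusters AMPA receptors, went from 61470 ± 9945 to 40648 ± 2659 normalized counts (SD, n = 5 each), with a log2 fold change of -0.58 (SE 0.10, limma adjusted p = 0.0025). Olfm2, an olfactomedin, rose from 1262 to 1657, with a log2 fold change of 0.39 (SE 0.10, limma adjusted p = 0.0199), and Olfm1 was at -0.07 (limma adjusted p = 0.674). Without GFP 4 or without Sox11 3, the adjusted p of Olfm2 was 0.0525 and 0.0510.

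Of 12 kinase and phosphatase genes that act on the receptor, 2 fell and none rose, beside 9.36% of all genes called lower and 9.65% called higher. Prkcb, a protein kinase C, went from 20224 to 16240 normalized counts, with a log2 fold change of -0.31 (SE 0.08, limma adjusted p = 0.0163). Ppp3r1, the regulatory subunit of calcineurin, went from 47875 to 33639, with a log2 fold change of -0.50 (SE 0.09, limma adjusted p = 0.00331). It shares 14.3% of its exonic bases with Wdr92 on the same strand. Prkaca, a catalytic subunit of protein kinase A, was at -0.15 (limma adjusted p = 0.0546).

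**Figure D4:**
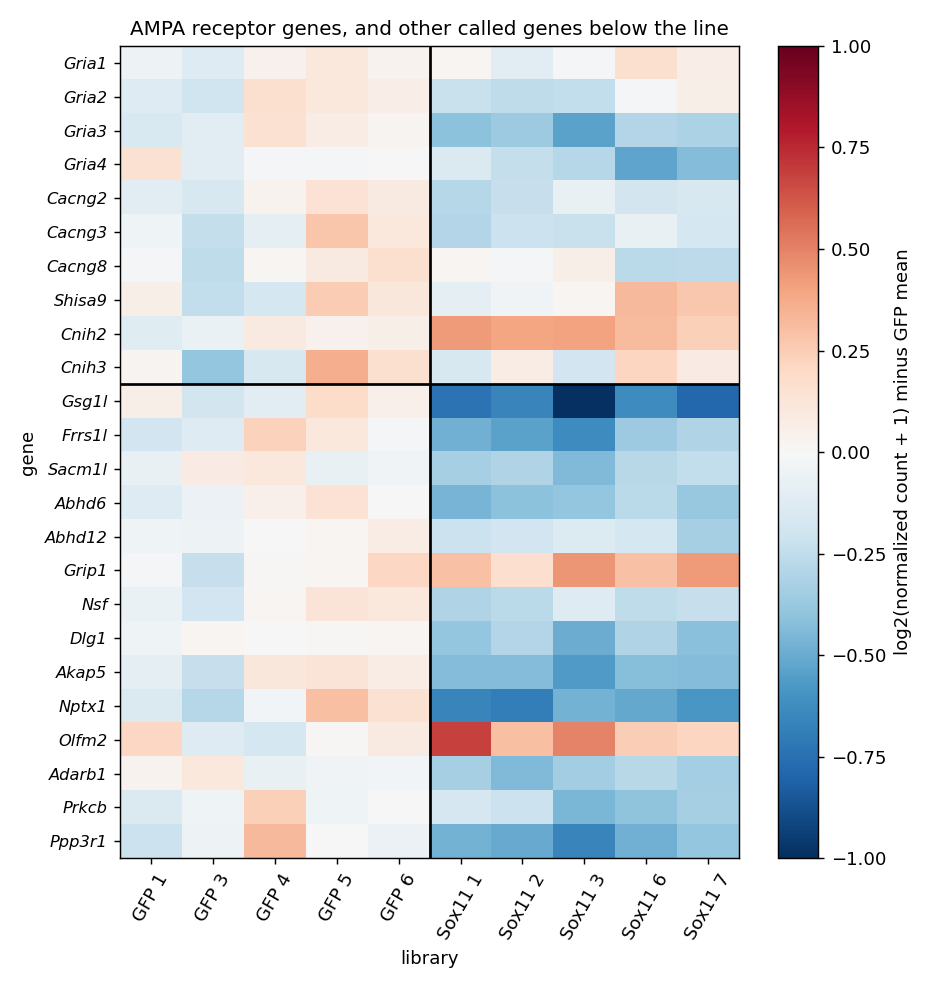
Difference of log2(normalized count + 1) from the GFP mean of each gene (colour, -1 to 1) for the 10 AMPA receptor genes, above the line, and the other called genes, below it, in each of the 10 libraries. The rows of Gria3, Gria4, Adarb1 and Dlg1 lie below 0 in the 5 Sox11 libraries, and those of Cnih2, Grip1 and Olfm2 above 0.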

How the data were processed

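Messenger RNA was sequenced from stranded TruSeq libraries made from 100 ng of total RNA. Per the submitters' processing notes, the authors' tools were bcl2fastq 1.8.4, cutadapt 1.9.1, STAR 2.5.2a, featureCounts 1.5.1 of Subread and DESeq2 1.12.3 in R 3.3.1, with GRCm38; strand use in counting is not given in the sources used here. Each deposited signal value is the authors' normalized count per gene, a read count divided by a size factor for each library. Dividing by the value of 1 read gave whole reads, within 0.01 reads, for 100% of values, and edgeR on those reads called 3272 genes. Columns name the group but carry numbers other than those of the titles, so they were assigned to groups only. Identifiers were matched to GENCODE M21 (48144 of 48526). The test was limma 3.58.1 in R 4.3.3 on log2(normalized count + 1), with trend and robust fitting, over genes with a mean of at least 10; fold changes are on that scale. It called 3234 genes. The fit was also run on simulated counts with no difference by column number, so that run cannot show how it handles one. Each library is labelled as a separate mouse. The fewest reads behind a member's value were 1658, a counting error of 2.46%. Members' exons overlapped other genes by at most 5.86%. The members are a list of symbols with no threshold on measured values, but they and the other lists were chosen with earlier results of these data known. Named genes are all members and, in each other list of AMPA receptor genes, those past the threshold and the 3 of lowest p. Marker lists are given by counts and summed level, and single markers were named with their values already known. edgeR 4.0.16 and DESeq2 1.42.0 were alternatives, as were other filters, scalings and left-out libraries.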

Additional observations from a re-analysis of the deposited data

Results flagged for a closer look

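The delivered gene itself stood apart in 1 library of each group by Dixon's test (critical value 0.71 for 5 samples). Sox11 was at 1634 normalized counts in GFP 5, the highest of its group, and at 20434 in Sox11 3, the highest of the Sox11 libraries. In all, 22 groups of 5 values were examined, and chance flags about 1 in 20. No value of the 10 AMPA receptor genes stood apart in this way. In Sox11 3, Gria3 had its lowest value of all 10 libraries, at 8103 normalized counts, while Gria4 and Cnih2 did not have their extreme value there.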

How the results depend on the processing

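Over 29 alternatives Gria3 missed the threshold in 3, Gria4 in 4 and Cnih2 in 1. These genes kept their direction, which fits on fewer of the same libraries could not change, since their groups do not overlap. The title numbers could not be used as a replicate block, since columns carry other numbers. Of the column numbers, 1, 3 and 6 occur in both groups. The correlations of the deviations of same-numbered libraries from their group means were 0.194, 0.067 and 0.415. Between libraries of unlike number they ran from -0.627 (GFP 5 with Sox11 2) to 0.621 (GFP 3 with Sox11 2). These correlations cannot decide whether a shared number marks a pair. With the column number as a replicate block, which rests on these 3 numbers, 49 genes were called, with 0 members and 0 other listed genes in either direction (adjusted p of 0.111 for Gria3, 0.164 for Gria4 and 0.105 for Cnih2). The 6 libraries of these numbers without the block gave 603 genes, 0 members lower, 1 higher, and 4 other listed genes lower and 0 higher. The count of genes called was 1537 at a threshold of 0.01 and 969 among column numbers 1 to 3, and DESeq2 called 4062. Members called lower were 1 at a threshold of 0.01, 5 with sample weights (with Gria2, Cacng2 and Cacng3), 0 among column numbers 1 to 3 and 4 among numbers 4 and above. Among the other listed genes, 0 were called higher at a threshold of 0.01, 5 with quantile scaling, 4 with the column number as a covariate and 1 among numbers 4 and above, and 6 were called lower among numbers 1 to 3. Leaving out each library in turn gave 2487 to 3285 genes called, 2 to 4 members lower (4 without GFP 3), 1 member higher throughout, 11 to 15 other genes lower and 1 to 3 higher (1 without GFP 4 or Sox11 3), and a log2 fold change of Sox11 itself of 2.89 to 3.15. Cacng2 passed also with DESeq2 (adjusted p = 0.0317) and with CA1 markers as a covariate in limma (adjusted p = 0.0227). The splits by column number, the block and the CA1 covariate were chosen after seeing the data. Gria1, Cacng8, Shisa9 and Cnih3, which did not pass the test over all libraries, had a log2 fold change of either sign over the alternatives. For the members, the counting error was at most 2.46% of a value, below the spread between mice.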

Other observations

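The genes whose log2 levels ran most like those of the called members over the 10 libraries (Pearson's r, 14254 genes averaging 50 normalized counts or more, differences between the groups included) were Usp31 (r = 0.991) and Pdpk1 (0.990) for Gria3. For Gria4 they were Rad51d (0.957) and Tceal6 (0.955), and for Cnih2 they were Ankrd13b (0.986) and Acap3 (0.969). These are descriptions over libraries that differ in group and in read depth.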
